A study of Macaca fascicularis with 3 samples.

Results

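The miR-200 family is a group of small regulatory RNAs that marks epithelial cells, the lining cells that form, among other structures, the tubules of the kidney. Its members were taken by name from the deposited raw counts, as every listed mature miRNA with a stem of miR-141, miR-429 or miR-200a, b or c, and any arm. This gave 6 of the 432 listed names, which are both arms (5p and 3p, the strands cut from either side of a hairpin) of the miR-200a, miR-429 and miR-200c hairpins. The stems miR-200b and miR-141 are not listed, so the family's counts, shares and ratios below are those of the 6 listed names. The smallest sum of counts over all libraries in the table was 15, so a miRNA under that minimum and one that the authors did not look for cannot be told apart.

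The samples were kidney cortex of 3 untreated (naïve) Macaca fascicularis, the cynomolgus monkey, aged 2 to 3 years, with 1 small RNA library per animal and no second group. The cortex is the outer layer of the kidney, with the glomeruli and much of the tubule system. Frozen pieces of 25 to 30 mg were used, and the labels do not give the sex of the animals, their origin or the cell types in each piece. The libraries held 3957188 to 4707892 counts assigned to listed miRNAs, and the renal tubule miRNA miR-204-5p was present at 46379, 51196 and 46418 TMM-scaled CPM in animals 1, 2 and 3. Here CPM is counts per 1000000 listed counts, and TMM scaling corrects these for differences in composition between libraries. Library 3 stood apart in its low values: of the 391 miRNAs averaging 10 or more counts per library, the lowest 10% deviated from the other animals by -1.47 or less on the log2 scale in animal 3. The matching limits were -0.81 in animal 1 and -0.47 in animal 2. The highest 10% began at 0.95, 0.88 and 0.83 in animals 1, 2 and 3, so the upper values of library 3 did not stand apart.

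In mammals the family is made from a pair of gene clusters. One cluster carries miR-200b, miR-200a and miR-429, and the other carries miR-200c and miR-141. A miRNA finds its targets mainly through its seed, the bases 2 to 8 of the mature strand. The 3p strands of miR-200a and miR-141 share one seed, those of miR-200b, miR-200c and miR-429 share another, and the seeds differ at a single base. The 3p strands are regarded as the active guides. They repress ZEB1 and ZEB2, transcription factors that shut down E-cadherin and drive epithelial cells towards a mesenchymal state, and ZEB1 and ZEB2 in turn repress both clusters. In the kidney the family is known from tubule epithelium and has been studied in fibrosis.

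Nearly all of the family's counts came from the guide strands of miR-200a and miR-429. These 2 miRNAs stood at ranks 24 and 25 of the 432 names by mean CPM and made up 99.6% ± 0.158 (SD, n = 3) of the family. The opposite arm miR-200a-5p was 101 to 270 times lower than its partner, at rank 196. Both arms of miR-200c and the 5p arm of miR-429 lay between ranks 373 and 418, near the bottom of the list.

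**Figure D1:**
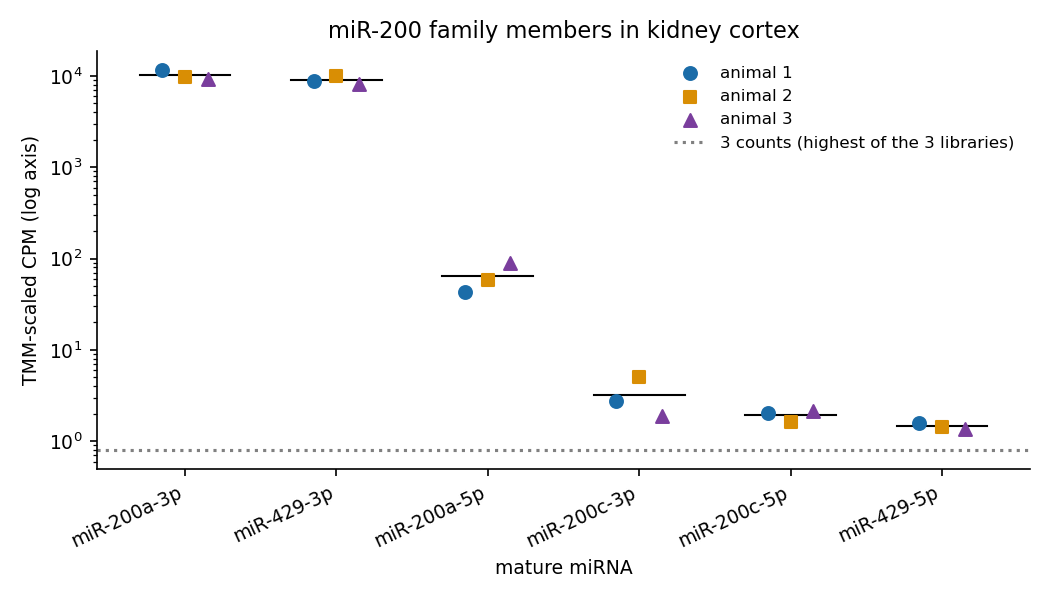
TMM-scaled CPM (log axis) of the 6 listed miR-200 family members, with a point for each of the 3 animals, a bar at their mean and a dotted line at 3 counts in the library where this is highest. miR-200a-3p and miR-429-3p lie near 10162 and 8969, miR-200a-5p near 63.8, and the other 3 members between 1.35 and 5.07 in every animal.

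mfa-miR-200a-3p (mfa for M. fascicularis), a guide strand of the first cluster, had 51394, 47515 and 33894 counts in animals 1, 2 and 3. On the TMM scale these were 11690, 9644 and 9152 CPM, a mean of 10162 ± 1346 (SD, n = 3). Animal 1 was highest, and animals 2 and 3 lay close together. Its rank was 23, 27 and 25 in the single libraries.

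mfa-miR-429-3p, encoded beside miR-200a, had 38396, 49389 and 30177 counts. These were 8734, 10025 and 8148 TMM-scaled CPM, a mean of 8969 ± 960 (SD, n = 3), with animal 2 highest and animal 3 lowest. Its human counterpart in the authors' deposited table is miR-429, named without an arm. It ranked at 27, 26 and 26 in animals 1, 2 and 3.

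mfa-miR-200a-5p, the opposite arm of miR-200a, had 190, 286 and 334 counts. The scaled levels were 43.2, 58.0 and 90.2 CPM, a mean of 63.8 ± 24.0 (SD, n = 3). Its order of animals was the reverse of that of miR-200a-3p, with animal 3 highest and animal 1 lowest.

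mfa-miR-200c-3p, the guide strand of the second cluster, had 12, 25 and 7 counts. The exact Poisson 95% intervals, which cover counting error only because the reads carry no molecular identifiers, were 6.20 to 21.0, 16.2 to 36.9 and 2.81 to 14.4 counts. Before scaling, the interval of animal 2 overlapped that of animal 1 and did not overlap that of animal 3. The scaled levels were 2.73, 5.07 and 1.89 CPM, a mean of 3.23 ± 1.65 (SD, n = 3).

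mfa-miR-200c-5p had 9, 8 and 8 counts, or 1.94 ± 0.283 TMM-scaled CPM (SD, n = 3). mfa-miR-429-5p had 7, 7 and 5 counts, or 1.45 ± 0.125 TMM-scaled CPM (SD, n = 3), and it is the only one of the 6 for which the authors' deposited table lists no human counterpart. Its sum of 19 counts lies just above the smallest sum in the table. For both miRNAs the animals lay within each other's counting intervals.

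Of the 6 members, 3 reached 10 counts in every library, against 81.9% of all 432 listed miRNAs. The members that did not were both arms of miR-200c and miR-429-5p. A floor of 3 counts corresponded to 0.682, 0.609 and 0.810 TMM-scaled CPM in animals 1, 2 and 3.

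The gap between miR-200c-3p and the listed guides of the first cluster was large in each library. miR-429-3p and miR-200c-3p carry the same seed, and miR-429-3p had 3200 times the counts of miR-200c-3p in animal 1 (exact Clopper-Pearson 95% interval of the ratio 1832 to 6193), 1976 times in animal 2 (1338 to 3053) and 4311 times in animal 3 (2092 to 10723). All these intervals overlapped between animals. miR-200a-3p exceeded miR-200c-3p by 4283-fold, 1901-fold and 4842-fold. All names of miR-200c together made up 0.0233%, 0.0339% and 0.0233% of the family's counts. Counting required a match with 0 mismatches, and the treatment of reads that match several miRNAs was not stated, so the split between names of similar sequence is uncertain. Its part in the low values of miR-200c was not tested. The missing names miR-200b, which lies in the cluster of the abundant members, and miR-141, which lies beside miR-200c, could not be set into this order.

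Between the listed guides, the counts of the seed groups were nearly balanced. The seed groups as a whole could not be compared, because miR-141 of one and miR-200b of the other are not listed. miR-200a-3p, the only listed member of its seed group, took 57.2%, 49.0% and 52.9% of the family's 3p counts in animals 1, 2 and 3. The Wilson 95% intervals were 56.9 to 57.6, 48.7 to 49.3 and 52.5 to 53.3. The mean was 53.0% ± 4.11 (SD, n = 3). The remaining 42.8%, 51.0% and 47.1% belonged to miR-429-3p and miR-200c-3p, and only 44 of those counts in all libraries together were from miR-200c-3p. The larger group by listed members thus changed between animals, and the intervals of the 3 animals, which cover counting error only, did not overlap.

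The order of neighbouring members was compared within libraries by flipping the signs of the 3 differences in an exact permutation test, two-sided. With 3 animals its smallest possible p is 0.25, so it cannot pass a threshold of 0.05. miR-200a-3p exceeded miR-429-3p in 2 of 3 animals, with a mean log2 difference in counts of 0.18 ± 0.24 (SD) and an exact permutation p of 0.5. These neighbours did not differ beyond their spread. miR-429-3p exceeded miR-200a-5p in 3 of 3 animals by 7.20 ± 0.62, with an exact permutation p of 0.25 and 0.417 after Benjamini-Hochberg adjustment over the 5 neighbouring pairs. miR-200a-5p exceeded miR-200c-3p in 3 of 3 animals by 4.36 ± 1.08, with the same p-values. Lower down, miR-200c-3p exceeded miR-200c-5p in 2 of 3 animals by 0.62 ± 0.94 (exact permutation p 0.5), an order not resolved at these counts. miR-200c-5p exceeded miR-429-5p in 3 of 3 animals by 0.41 ± 0.25, with an exact permutation p of 0.25, although the counts differed by only 1 to 3.

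The use of hairpin arms was read from counts within a library, where scaling between libraries plays no part. In miR-429 the 5p arm held 0.0182%, 0.0142% and 0.0166% of the hairpin's counts in animals 1, 2 and 3, with a Wilson 95% interval of 0.00883 to 0.0376 for animal 1. Of the 122 hairpins for which the table lists both arms, together at 10 or more counts on average, only miR-29c leaned further to the 3p arm by mean log2 ratio. In miR-200a the 5p arm held 0.368%, 0.598% and 0.976%, with intervals of 0.320 to 0.424, 0.533 to 0.672 and 0.877 to 1.09. None of these intervals overlapped, although they too cover counting error only. The hairpin stood at place 11 of 122 in its lean to the 3p arm.

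A chi-square test of homogeneity of the arm counts over the libraries, with Benjamini-Hochberg adjustment over all 122 hairpins, called 67.2% of them different between libraries. It sets single libraries against counting error of reads that are not independent molecules, so a call does not separate animals from library preparation. Of the family's 3 hairpins it called 1, miR-200a, with an adjusted p of 2.42e-27. The adjusted p was 0.900 for miR-429 and 0.156 for miR-200c. The miR-200a call came with a range of 1.41 between animals in log2(5p/3p), close to the median range of 1.20 over all hairpins, while miR-429 had a range of 0.36. miR-200a also passed the test without any 1 of the animals, with adjusted p-values from 3.92e-28 to 1.11e-06.

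miR-200c was the hairpin without a fixed arm. Its 5p arm held 9 of 21, 8 of 33 and 8 of 15 counts in animals 1, 2 and 3. As shares these were 42.9%, 24.2% and 53.3%, with Wilson 95% intervals of 24.5 to 63.5, 12.8 to 41.0 and 30.1 to 75.2. The 3p arm led in animals 1 and 2 and the 5p arm led by 1 count in animal 3. The intervals overlapped, so a change of arm was not detectable at this depth. Over all hairpins, the dominant arm differed between animals in 7.38%, and the 3p arm was dominant in all animals in 40.2%, as it was in miR-200a and miR-429.

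**Figure D2:**
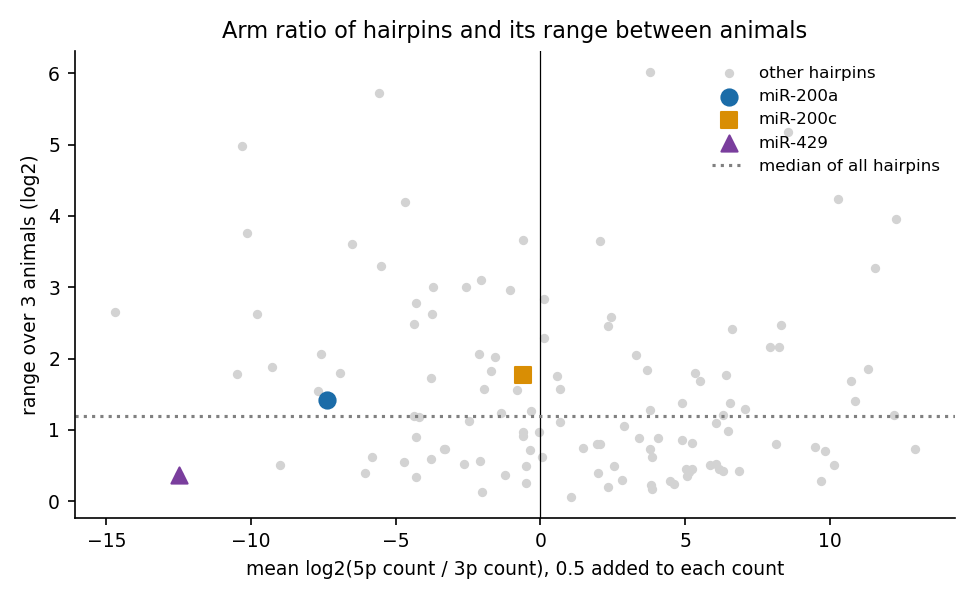
Mean over 3 animals of log2(5p count / 3p count), with 0.5 added to each count, against its range over the animals (log2), for 122 hairpins. miR-429 sits far to the left with a range of 0.36, miR-200a at -7.37 with a range of 1.41, and miR-200c at -0.60, near equal arms, with a range of 1.77.

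Differences between the animals were measured on the TMM scale for the 4 members averaging 10 or more counts. The members miR-200c-5p and miR-429-5p had mean counts of 8.33 and 6.33 and were left out. A homogeneity test by chi-square, set against effective library sizes and adjusted by Benjamini-Hochberg over all 391 miRNAs at that level, called 81.1% of them different between libraries. It called all 4 members, a share near this background. The test sets the animals against counting error alone and compares libraries, not conditions. The chi-square statistics were 1506 for miR-200a-3p, 898 for miR-429-3p, 73.5 for miR-200a-5p and 7.17 for miR-200c-3p. The adjusted p of miR-200c-3p was 0.0349, and it rose to 0.517 without animal 2 and to 0.111 without animal 3, which ends the call.

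By size, the differences of the guide strands were small. The highest animal exceeded the lowest by 1.28-fold for miR-200a-3p and by 1.23-fold for miR-429-3p, and without animal 3 by 1.21-fold and 1.15-fold. miR-200a-5p spanned 2.09-fold and miR-200c-3p 2.68-fold, and without animal 3 these were 1.34-fold and 1.86-fold. A span over 2-fold was met by 2 of the 4 members, against 39.4% of the 391 miRNAs. miR-200a-5p lies close to that limit, at 1.91-fold when scaled by library totals alone.

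The SD over animals of log2(TMM-scaled CPM + 1) was 0.19 for miR-200a-3p and 0.15 for miR-429-3p, and 17.6% and 10.7% of the 391 miRNAs had a smaller one. The median SD was 0.37. Abundant miRNAs have less counting error, and of the 58 that averaged 10000 counts or more, 21 had a smaller SD than miR-200a-3p and 13 a smaller SD than miR-429-3p. For miR-200a-5p the SD was 0.53 and for miR-200c-3p 0.54, above the median of all miRNAs.

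Each animal was then set against the mean of the other animals on the log2 scale. miR-200a-3p deviated by 0.32, -0.10 and -0.21 in animals 1, 2 and 3, and miR-429-3p by -0.05, 0.25 and -0.20. Both guides were thus lowest in animal 3, by a small amount, and each peaked in a different animal. Of the 391 miRNAs, 41.4% were lowest in animal 3, and 37.3% and 38.1% deviated further down there than miR-200a-3p and miR-429-3p. miR-200a-5p deviated by -0.73, -0.10 and 0.84, and in animal 3 it lay above 90.3% of all miRNAs tested. It was the only 1 of the 4 members that was highest in animal 3, where 40.4% of all miRNAs were highest. The arms of the miR-200a hairpin therefore lay on opposite sides of the other animals in animals 1 and 3. miR-200c-3p deviated by -0.17, 0.89 and -0.72, values that rest on 7 to 25 counts.

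**Figure D3:**
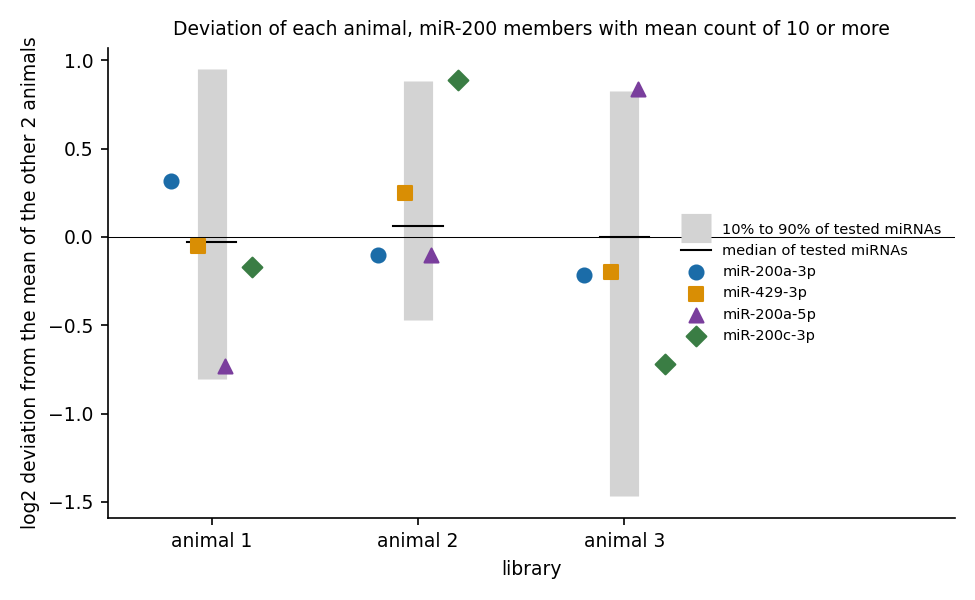
Log2 deviation of each animal from the mean of the other 2 animals, for the 4 family members averaging 10 or more counts. Grey bars span 10% to 90% of the 391 miRNAs tested and black lines mark their median. miR-200a-3p and miR-429-3p stay within 0.32 of zero in every animal, while miR-200a-5p runs from -0.73 in animal 1 to 0.84 in animal 3.

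The 6 listed members together, without miR-200b and miR-141, took 2.09%, 2.07% and 1.63% of listed counts in animals 1, 2 and 3. The Wilson 95% intervals were 2.08 to 2.10, 2.05 to 2.08 and 1.62 to 1.64. Animals 1 and 2 overlapped and animal 3 was lower, by intervals that cover counting error only. These shares are not scaled between libraries. In bulk tissue with 1 library per animal, fewer epithelial cells, less of these miRNAs per cell and differences in library preparation cannot be told apart. The family was also set against lists of miRNAs known from renal tubule, other epithelia and other cell types, counted in the same libraries. These ratios do not tell fewer cells from less miRNA per cell either.

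Against the renal tubule list (5 names from the stems miR-204, miR-194, miR-192 and miR-215, carried by miR-204-5p) the family held 0.366, 0.333 and 0.307 of its counts in animals 1, 2 and 3. Against the vascular list (5 listed names of miR-126, miR-143 and miR-145, from endothelium and smooth muscle) it held 0.268, 0.288 and 0.191. Both ratios were lowest in animal 3. The vascular list itself summed to 336113, 337593 and 337113 counts in animals 1, 2 and 3. As shares of listed counts these were 7.81%, 7.17% and 8.52%, highest in animal 3. Its largest name miR-126 had 48817, 38149 and 43571 TMM-scaled CPM, highest in animal 1 and lowest in animal 2. miR-145-5p had 19384, 25360 and 40592 TMM-scaled CPM, lowest in animal 1 and highest in animal 3. Of the other vascular names, miR-143-3p was at 7903, 4758 and 6532 and miR-145-3p at 346, 254 and 279, both highest in animal 1. miR-143-5p was at 2.05, 1.01 and 48.3, highest in animal 3, from 9, 5 and 179 counts. The names of this list thus did not share an order of animals. The part of a different mix of cells in these values was not tested.

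Relative to the stromal list (miR-199a and miR-214) the family had 1.94, 1.70 and 1.61 times the counts. Relative to the erythroid list (miR-451, miR-144 and miR-486, from red blood cells) it had 4.16, 4.72 and 2.82 times. For the leucocyte list (miR-223, miR-142 and miR-150) the ratios were 12.9, 12.0 and 10.7. The ratios to the renal tubule, stromal and leucocyte lists spanned 1.19-fold, 1.21-fold and 1.20-fold between animals. The spans were 1.67-fold for the erythroid list and 1.51-fold for the vascular list. These sums rest mostly on the largest names. With the median over the names of a list, the spans were 1.39-fold (erythroid), 1.60-fold (vascular), 1.44-fold (renal tubule), 1.495-fold (stromal) and 1.52-fold (leucocyte), so the order of the lists by span is not fixed.

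**Figure D4:**
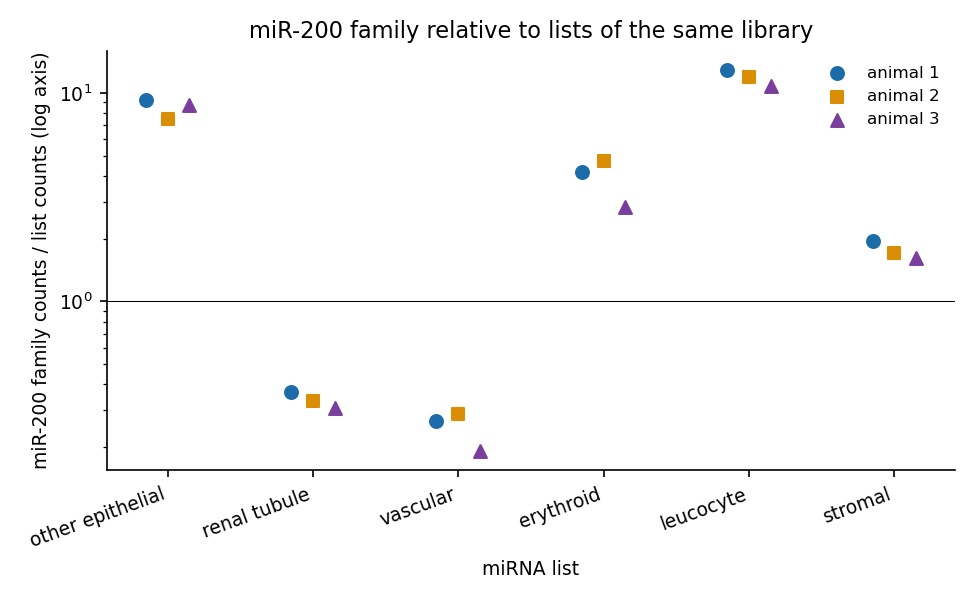
Counts of the miR-200 family divided by the counts of each list in the same library (log axis), with a point per animal. The family lies below the renal tubule and vascular lists and above the other 4 lists in all 3 animals, and animal 3 has the lowest ratio for each list except the other epithelial one.

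The renal tubule list, carried by miR-204-5p, was higher than the family. A second epithelial list, of miRNAs known mainly from other epithelia, was lower than the family. This list of miR-205, miR-203, miR-182, miR-183, miR-96, miR-375 and miR-34 had 10 listed names, and the family held 9.25, 7.48 and 8.74 times its counts in animals 1, 2 and 3. Its most abundant name was miR-34a-5p, a target of p53 that is not limited to epithelium, at 1573 ± 266 TMM-scaled CPM (SD, n = 3). miR-183-5p was at 416 ± 53.9, miR-182 at 171 ± 23.4 and miR-96 at 56.6 ± 16.4. These 3 are made from a single cluster best known from sensory epithelia. miR-205, which represses ZEB1 and ZEB2 together with the miR-200 family and is a marker of stratified epithelium, had only 8, 29 and 16 counts. miR-203, an epidermal miRNA, had 96, 73 and 86 counts and miR-375, known from endocrine and secretory epithelium, 55, 115 and 23. Of the 9 names averaging 10 or more counts, the homogeneity test called 8, against 81.1% of all miRNAs. In animal 2, 7 of the 9 were highest, against 29.7% of all miRNAs. These 7 are not independent, since they include miR-182, miR-96 and both arms of miR-183, from the single cluster.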

How the data were processed

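Small RNA libraries of kidney cortex from 3 animals were analysed as a single group. The authors deposited raw whole-number counts per mature miRNA, from reads mapped with 0 mismatches to M. fascicularis miRNAs and kept from 15 reads up, per the file headers. The authors' second deposited table holds a normalized signal made with edgeR, per the file headers, and was used only as an alternative and for human names. The aligner, its version and the miRNA release are not given in the sources used here. No other column of single samples was found in either table. TMM factors came from edgeR 4.0.16 in R 4.3.3 over miRNAs averaging 10 or more counts, and DESeq2 1.42.0 size factors were an alternative. Levels are TMM-scaled CPM, and deviations use a pseudocount of 1 CPM. Homogeneity was tested by chi-square over all miRNAs or hairpins with Benjamini-Hochberg adjustment and a threshold of 0.05, with scipy 1.17.1. Both tests were also run on simulated counts with counting error only, which leave out any further spread between libraries. Libraries held 3957188 to 4707892 counts.

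The miRNAs named are all family members, the 3 miRNAs most alike to each member at 100 CPM or more on average, the neighbours of each member in level, and the other epithelial list. miR-34 and miR-203 were matched with any letter, so that miR-34c entered the list. The rule also asked for miRNAs sharing bases 2 to 8 with a member, which was not applied because mature sequences were not used here. miR-126, the arms of miR-143 and miR-145, miR-204-5p and miR-29c were named after their values were seen. One name of each pair with identical counts was kept in the lists. The members and lists were chosen with earlier results of these data known. With separate animals but 1 library each, spread between animals includes technical spread.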

Additional observations from a re-analysis of the deposited data

How the results depend on the processing

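Of 205 recalculated values over 35 results, 193 stayed within the SD over animals or, for counts and ratios of lists, within 1.5 times, or kept the direction of the difference for the order of members. Many could not have moved further, such as shares with 1 animal left out. The share of the family in listed counts, 1.93% on average, was 3.78% once the 10 most abundant miRNAs were taken out of the total, which is so by construction. The number of members spanning over 2-fold, 2 of 4, was 1 with library totals, 1 with the authors' normalized values, 1 at a mean count of at least 100, and 0 to 1 when an animal was left out, with 0 without animal 3. The number of hairpins with a differing dominant arm, 1, was 0 at a minimum of 100 counts for both arms together, which leaves out miR-200c, and 0 to 1 when an animal was left out, with 0 without animal 3. The authors' normalized values are not scaled for library size and moved the median deviation of all miRNAs in animal 3 from 0.0022 to -0.19 and in animal 2 from 0.06 to 0.23. With them miR-200a-3p deviated by -0.41 in animal 3, and miR-429-3p by 0.43 in animal 2 and -0.40 in animal 3. Of 72 recalculated deviations, 5 turned direction. In animal 2 miR-200a-3p turned from -0.10 to 0.08 both with the authors' values and without animal 1. There miR-200a-5p turned from -0.10 to 0.07 with the authors' values and to 0.42 without animal 3. In animal 1 miR-429-3p turned from -0.05 to 0.06 without animal 2. Using both names of pairs with identical counts was chosen after seeing the data. No paired analysis between groups was possible because all libraries belong to 1 group. The depth limits miR-200c and miR-429-5p, at 5 to 25 counts per library.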

Other observations

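Likeness between miRNAs was measured as the Euclidean distance between their profiles over the 3 animals, on log2(TMM-scaled CPM + 1) centred on each miRNA's mean, against the other 178 miRNAs at or above 100 CPM on average. The nearest to miR-200a-3p were let-7d at 0.04, miR-376c-3p at 0.05 and let-7g-5p at 0.05. For example, let-7g-5p had 102598, 93020 and 69687 counts in animals 1, 2 and 3, highest in animal 1 and lowest in animal 3 as was miR-200a-3p. The nearest to miR-429-3p were let-7a-3p at 0.02, miR-20a-5p at 0.03 and miR-182 at 0.06. miR-182, one of the other epithelial miRNAs, had 726, 970 and 560 counts. miR-429-3p, which is encoded beside miR-200a, was only at place 39 of 178 in likeness to miR-200a-3p, at a distance of 0.34, where the median distance was 0.54. With 3 animals many profiles lie close by, and these places carry no test.

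In the order of mean unscaled CPM, the miRNAs around the pair of guides were miR-424-5p above, with a mean of 11405 ± 4567 TMM-scaled CPM (SD, n = 3), and miR-103-3p below, with 8470 ± 6284. Both neighbours varied more between the animals than the family's guides, whose SDs were 1346 and 960. In that order miR-200a-5p, at 63.1 unscaled CPM, stood between miR-654-3p at 72.5 ± 26.5 and miR-187-3p at 62.5 ± 34.5 (SD, n = 3). On the TMM scale it did not differ from miR-187-3p beyond their spread, at 63.8 and 63.9. miR-187-3p had 201, 182 and 404 counts and so was, like miR-200a-5p, highest in animal 3. The low members miR-200c-3p, miR-200c-5p and miR-429-5p stood beside miR-323b-3p and miR-324-3p, miR-873-5p and miR-7186-5p, and miR-92b-5p and miR-491-3p.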
